A study of Mus musculus with 12 samples.

Results

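The glycolysis and hypoxia genes are the enzymes that convert glucose to pyruvate and lactate, the carriers that move glucose and lactate across the cell membrane, the kinases that steer pyruvate and fructose-2,6-bisphosphate, and genes of the oxygen response controlled by hypoxia-inducible factor (HIF). They were chosen by name: 37 symbols were looked up in the deposited table of 33924 genes, and 36 were found, with pyruvate kinase listed as Pkm2 and not as Pkm. Of these 36, 29 passed the filter on low counts and were tested, and 7 were not (Slc16a3, Aldoc, Gapdh, Pgk1, Pgam1, Eno2 and Ankrd37). The cells were mouse myeloid progenitors, sorted from marrow by c-Kit on the surface and by the absence of Sca1 and of lineage markers. The RNA was read with a Lexogen 3′ kit, which counts 1 end of each transcript, so levels need no correction for gene length. There were 4 groups of 3 samples. Young controls (Mx+ Wt1+/+) and young hets (Mx+ Wt1fl/+) carried the word acute in their labels, and old controls and old hets of the same genotypes carried the word chronic. Age therefore cannot be told apart from whatever these words stand for. All 12 samples share Mx+, which the labels do not spell out, and no ages, inducing treatment, sex or extent of recombination are given. The labels do not say whether the samples of a group came from separate animals, so p-values measure only the spread between these samples.

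Glycolysis splits glucose into pyruvate in the cytosol, first spending ATP in a preparatory phase and then gaining it in a pay-off phase. Pyruvate is reduced to lactate by lactate dehydrogenase or enters the mitochondrion, a step that pyruvate dehydrogenase kinases hold back. When oxygen is scarce, HIF-1 alpha escapes the prolyl hydroxylases that mark it for degradation, and it raises transcription of glucose carriers, glycolytic enzymes, Pdk1, the hydroxylases themselves and secreted factors such as Vegfa. Blood stem cells are known for a glycolytic, HIF-dependent metabolism, and their progeny in the marrow rely more on mitochondria.

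Total counts ran from 645460 in young control 2 to 9645502 in old control 1, so that 1 count stood for 1.70 CPM in the shallowest and 0.0916 CPM in the deepest library (CPM here is scaled by the counts of the tested genes after TMM normalization). Wt1 itself had 1 to 23 counts per library and checks no label, because reads of a 3′ end can also come from an allele deleted elsewhere. Kit (96.5 to 290.7 CPM) and Cd34 (227.8 to 723.7 CPM) were present in every library, and Cd79a had at most 2 counts in any. Other lineage transcripts were present in all 12 libraries. The 8 B lymphoid markers listed, Cd79a among them, summed to 24.3 to 241 CPM, and the 10 mature neutrophil markers to 2138 to 12575 CPM. In old control 1, Ly6a, the gene of Sca1, which the sort selected against, reached 69.8 CPM, while the other 11 libraries held 0 to 1.18 CPM. The same library had Hlf, a stem cell transcription factor, at 270.2 CPM against 5.86 to 34.5 CPM elsewhere, and all 55 counts of the T-cell gene Cd3e. Young control 3 stood apart on the first principal component, which held 28.0% of the variance. Its sample number in the labels is 18, while young controls 1 and 2 are 29 and 30 and the young hets are 19 to 21. The old samples are 1 to 6, so the number cannot be told apart from age. Mitochondrial ribosomal RNA took 5.87% ± 2.07 of counts in young controls, 3.17% ± 0.294 in young hets, 2.07% ± 0.345 in old controls and 3.64% ± 1.94 in old hets (SD, n = 3 here and below).

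Over the group means of the 29 tested genes, the young controls were the lowest of the 4 groups for 22 and the old controls the highest for 17. Among all 10604 tested genes, the young controls were lowest for 37.9% and the old controls highest for 32.6%. Without old control 1 and young control 3, young controls were still lowest for 22 of 29 and old controls highest for 15. The 36 genes together took 0.135% ± 0.0261 of all counts in young controls, 0.181% ± 0.0247 in young hets, 0.235% ± 0.0225 in old controls and 0.221% ± 0.0129 in old hets. The young control libraries (0.115% to 0.164%) lay below both old groups (0.208% to 0.261%) without overlap and overlapped the young hets (0.160% to 0.208%). The young controls, lowest in this share, were highest in mitochondrial ribosomal RNA, and the old controls were the reverse. Old hets had higher means than young hets in both (mitochondrial ribosomal RNA 3.64% against 3.17%). As in any bulk sample, more cells of a kind and more RNA per cell cannot be told apart.

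**Figure D1:**
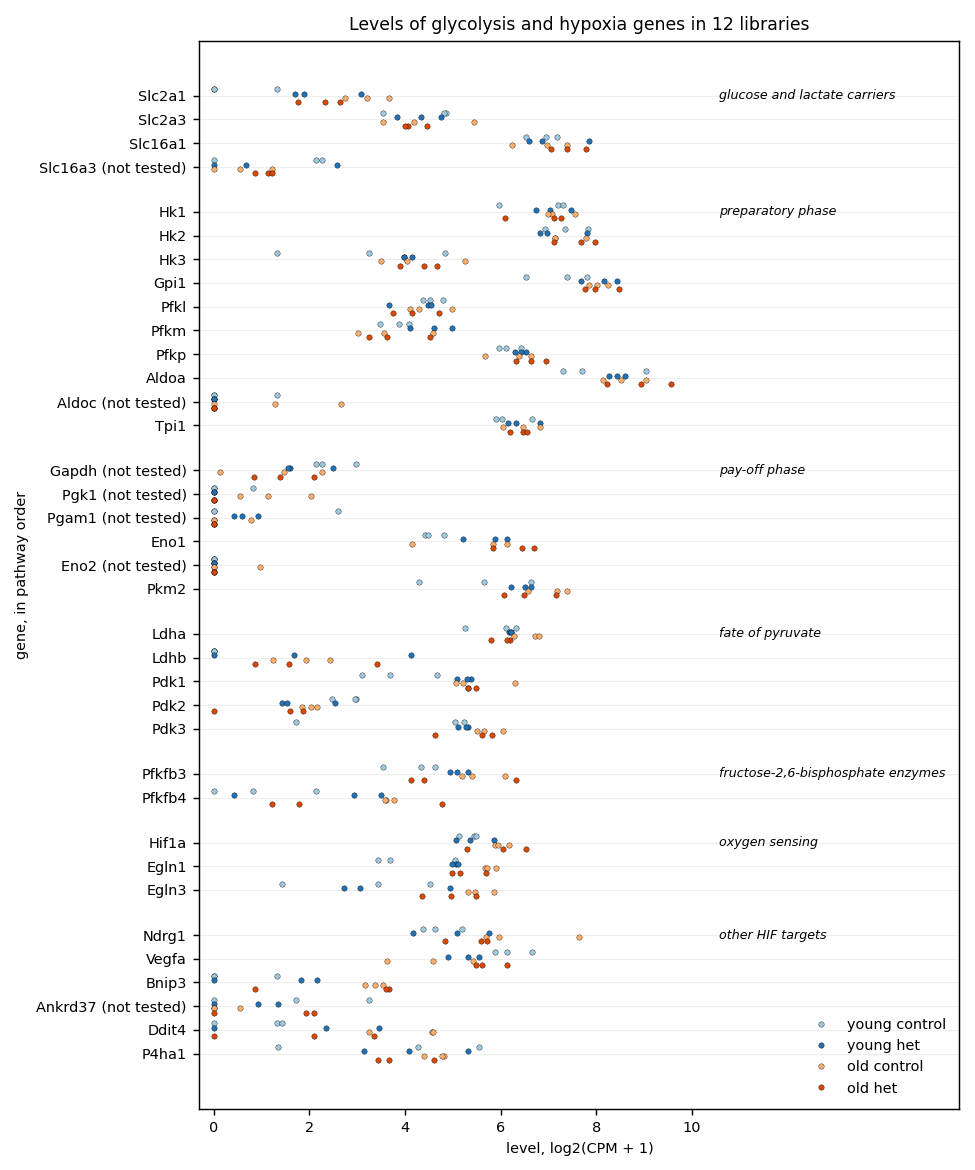
Level of each of the 36 genes as log2(CPM + 1), in pathway order from top to bottom, with 1 point per library coloured by group. Aldoa and Gpi1 were the most counted, and of the pay-off enzymes Gapdh, Pgk1, Pgam1 and Eno2 none exceeded 6.88 CPM in any library.

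HIF binds DNA at the core ACGTG or GCGTG, and promoters are shown here for 4 genes: Pdk1 and Vegfa, which passed in opposite directions in old against young controls, and Egln1 and Bnip3, which hold more cores. The 250 bases before the RefSeq gene start (GRCm38.p6) are printed 5′ to 3′ along the gene's strand, with the cores in capitals on either strand (CACGT and CACGC are the reverse strand, and overlapping matches were counted separately). They lie at chr2:71872974-71873223, forward strand for Pdk1, chr8:124949255-124949504, reverse strand for Egln1, chr17:46032378-46032627, reverse strand for Vegfa and chr7:138909507-138909756, reverse strand for Bnip3.
Pdk1: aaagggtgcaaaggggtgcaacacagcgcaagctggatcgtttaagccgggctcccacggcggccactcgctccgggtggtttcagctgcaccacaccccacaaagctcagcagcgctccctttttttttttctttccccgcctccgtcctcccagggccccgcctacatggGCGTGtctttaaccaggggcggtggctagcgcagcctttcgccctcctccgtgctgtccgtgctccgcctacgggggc
Egln1: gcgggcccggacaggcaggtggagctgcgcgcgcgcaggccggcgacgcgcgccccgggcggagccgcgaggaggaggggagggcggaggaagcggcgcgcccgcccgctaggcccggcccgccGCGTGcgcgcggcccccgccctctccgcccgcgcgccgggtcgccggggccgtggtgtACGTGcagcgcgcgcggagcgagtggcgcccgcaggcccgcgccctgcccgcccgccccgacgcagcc
Vegfa: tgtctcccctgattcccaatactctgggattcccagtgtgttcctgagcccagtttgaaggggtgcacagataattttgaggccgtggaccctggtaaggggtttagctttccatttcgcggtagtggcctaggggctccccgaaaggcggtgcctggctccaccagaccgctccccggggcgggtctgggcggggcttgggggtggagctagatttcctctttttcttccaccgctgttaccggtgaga
Bnip3: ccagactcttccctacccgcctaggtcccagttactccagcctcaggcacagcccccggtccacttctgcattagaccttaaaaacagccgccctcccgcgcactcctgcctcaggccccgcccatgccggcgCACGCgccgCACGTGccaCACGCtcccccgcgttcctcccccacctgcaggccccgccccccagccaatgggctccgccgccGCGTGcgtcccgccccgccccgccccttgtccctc
This window of Pdk1, which was higher in old than in young controls, holds 1 core, that of Egln1 holds 2 and that of Bnip3 holds 5. This Vegfa window holds 0, which says only that the letters are absent from it. A second annotated start holds 0 for Pdk1 and 2 for Vegfa, so each of these genes has 1 window with a core and 1 without. Starts were found for 34 of the 36 genes (not for Slc2a3 and Ndrg1), and 39 of their 49 windows (79.6%) held a core, against 38.6% of all 32841 windows of this length. The windows of these genes were also richer in G and C, at a mean of 61.0% against 53.2%, and the core contains CG. A match of letters is not evidence of binding, and no binding was measured.

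Entry of glucose rested on 2 carriers at modest levels. Slc2a1 (GLUT1, the broadly expressed and HIF-induced glucose carrier) stood at 1.52, 0 and 0 CPM in the young controls, 2.69, 2.25 and 7.501 CPM in the young hets, 11.6, 8.25 and 5.75 CPM in the old controls and 4.04, 2.405 and 5.25 CPM in the old hets. The young controls held 2 counts in all, below every library of the other groups. With so few counts the ratio of summed, scaled counts of young hets to young controls was 6.94 (95% counting interval 1.85 to 58.5), and of old controls to young controls 16.1 (95% counting interval 4.40 to 134), where the intervals cover counting error only. Slc2a3 (GLUT3, a high-affinity glucose carrier) averaged 22.0 ± 9.79 CPM in the young controls, 19.4 ± 6.35 in the young hets, 23.4 ± 16.7 in the old controls and 17.3 ± 3.28 in the old hets, with all 4 groups overlapping.

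The monocarboxylate carrier Slc16a1 (MCT1, which passes lactate and pyruvate in both directions) was the most counted carrier. It measured 122, 144 and 90.9 CPM in the young controls, 230.5, 115 and 95.3 CPM in the young hets, 74.5, 166 and 124 CPM in the old controls and 220.0, 133 and 167 CPM in the old hets, and the groups overlapped. Slc16a3 (MCT4, the HIF-induced lactate exporter) had 51 counts in all and was not tested, averaging 2.41 ± 2.10 CPM in the young controls, 1.85 ± 2.70 in the young hets, 0.599 ± 0.672 in the old controls and 1.11 ± 0.265 in the old hets.

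In the preparatory phase, hexokinases trap glucose as glucose-6-phosphate. Hk1, the ubiquitous form, averaged 122 ± 52.1 CPM in the young controls, 137 ± 35.7 in the young hets, 149 ± 32.7 in the old controls and 119 ± 45.9 in the old hets. Hk2, the inducible form, was at a like level, averaging 170.2 ± 54.0 CPM in the young controls, 153 ± 60.5 in the young hets, 167 ± 47.2 in the old controls and 198 ± 56.8 in the old hets. Hk3, a form found in myeloid cells, was lower, averaging 12.5 ± 13.5 CPM in the young controls, 15.4 ± 1.17 in the young hets, 20.9 ± 14.2 in the old controls and 19.5 ± 5.37 in the old hets. No hexokinase had a group that stood clear of another in any comparison.

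Glucose-6-phosphate isomerase, Gpi1, was the second most counted of the genes. It read 167, 91.8 and 222 CPM in the young controls, 343, 285 and 203 CPM in the young hets, 259, 304 and 228 CPM in the old controls and 216, 354 and 249.5 CPM in the old hets. Young controls 1 and 2 were the lowest 2 libraries of all 12, and all young controls lay below all old controls, though young control 3 lay above the lowest of each het group. The fitted log2 change of young hets over young controls was 0.78 (SE 0.34) with an unadjusted p of 0.0347 and an adjusted p of 0.311 (edgeR's quasi-likelihood test, Benjamini-Hochberg over 10604 genes, as for every p below), so it did not pass.

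Phosphofructokinase commits sugar to glycolysis, and its 3 isoforms were all counted. Pfkp, the platelet form, led with 71.4 ± 12.04 CPM in the young controls, 85.0 ± 6.74 in the young hets, 77.6 ± 24.9 in the old controls and 99.96 ± 22.5 in the old hets. Pfkl, the liver form, averaged 22.9 ± 3.57 CPM in the young controls, 18.6 ± 5.93 in the young hets, 21.8 ± 7.69 in the old controls and 18.1 ± 6.40 in the old hets. Pfkm, the muscle form, averaged 13.3 ± 2.94 CPM in the young controls, 23.4 ± 7.19 in the young hets, 13.6 ± 8.33 in the old controls and 14.0 ± 7.13 in the old hets, and the young hets (16.1 to 30.5 CPM) stood just above the young controls (10.2 to 16.05 CPM) with an adjusted p of 0.628.

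Aldoa, the aldolase that cleaves fructose-1,6-bisphosphate, was the most counted gene of the whole set. Its levels were 209, 158 and 530.4 CPM in the young controls, 347, 390.2 and 308 CPM in the young hets, 283, 529 and 368 CPM in the old controls and 761, 299 and 487 CPM in the old hets. Young control 3 and old het 1 sat far above the others of their groups, and all groups overlapped. Tpi1, which interconverts the 2 triose phosphates, averaged 74.3 ± 22.0 CPM in the young controls, 87.2 ± 21.9 in the young hets, 88.3 ± 23.7 in the old controls and 84.3 ± 11.05 in the old hets. Aldoc, the brain form of aldolase, had 66 counts in all, 58 of them in old control 1, and averaged 0.506 ± 0.877 CPM in the young controls, 0 in the young hets, 2.24 ± 2.75 in the old controls and 0 in the old hets.

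Of the pay-off phase only enolase and pyruvate kinase could be tested. Gapdh, which makes the first high-energy phosphate of this phase, had 92 counts over 12 libraries, between 1 and 27 in each, and averaged 4.69 ± 1.90 CPM in the young controls, 2.86 ± 1.51 in the young hets, 1.88 ± 1.84 in the old controls and 1.90 ± 1.26 in the old hets. Pgk1, the next enzyme, had 23 counts and averaged 0.253 ± 0.438 CPM in the young controls, 0 in the young hets, 1.59 ± 1.36 in the old controls and 0 in the old hets. Pgam1, the mutase after it, had 16 and averaged 1.70 ± 2.94 CPM in the young controls, 0.583 ± 0.289 in the young hets, 0.236 ± 0.408 in the old controls and 0 in the old hets. Eno2, the neuronal enolase, had 4 counts, all in old control 2 (0.943 CPM). Such counts are far below those of Aldoa (15089) and Tpi1 (3355), which act just before them. The last 250 bases of Gapdh transcripts matched 4 other annotated genes at 95% identity or more, and these copies held 356 counts in the table, against 92 for Gapdh itself. Tpi1 had 2 such copies, both pseudogenes and neither a row of the table, and Aldoa had 0. For Pgk1 and Pgam1 no such copy was found, and the source of their low counts was not tested. No comparison was made for these 4 genes.

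Eno1, the general enolase, was measured at 20.5, 27.2 and 21.4 CPM in the young controls, 69.6, 58.4 and 36.0 CPM in the young hets, 16.8, 69.3 and 56.2 CPM in the old controls and 86.5, 56.5 and 103 CPM in the old hets. Every young het lay above every young control, and in the old controls the first library was as low as the young controls. The log2 change in young hets over young controls was 1.26 (SE 0.50), with an unadjusted p of 0.0193 and an adjusted p of 0.249. An annotated copy, Eno1b, shares its 3′ end and is not a row of the table, so the count may hold reads of both.

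Pkm2, pyruvate kinase, which makes the second ATP of the phase, reached 49.4, 18.7 and 98.6 CPM in the young controls, 99.1, 73.7 and 89.7 CPM in the young hets, 166, 145 and 94.2 CPM in the old controls and 89.0, 141 and 66.3 CPM in the old hets. Young control 2 was the lowest library and old control 1 the highest, and young control 3 overlapped the old controls. The log2 change of old over young controls was 1.25, SE 0.45 (unadjusted p 0.0118, adjusted p 0.0982), which did not pass. It passed once young control 3 was left out, at 1.87 with an adjusted p of 0.0189.

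At the fork after pyruvate, Ldha, the subunit that favours lactate production, was the most counted. It read 68.3, 37.4 and 78.7 CPM in the young controls, 71.2, 73.7 and 73.1 CPM in the young hets, 105, 76.6 and 111 CPM in the old controls and 72.0, 54.5 and 69.0 CPM in the old hets. The old controls lay above all old hets, and the young hets fell within the spread of the young controls. For old hets against old controls the log2 change was -0.58 (SE 0.35), with an adjusted p of 0.999. The 3′ end of Ldha matched 1 annotated pseudogene at 95% identity or more, which is not a row of the table. Ldhb, the subunit that favours pyruvate, was nearly absent, with 0, 0 and 0 counts in the young controls, 49, 0 and 13 in the young hets, 15, 12 and 10 in the old controls and 1, 24 and 3 in the old hets. All 3 young controls were at 0, as was 1 young het, and 49 of the 62 counts of the young hets came from a single library. Taking 3 counts as the floor for the young controls and the other counts as they are, Ldhb was at least 4.28-fold higher in young hets. In old controls it was at least 2.28-fold higher than in young controls on the same terms. The lower 95% counting limits, which also cover error in the higher group, were smaller, at 3.38 and 1.76. Without young het 1 the bound for young hets was 1.11-fold.

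Pdk1, the HIF-induced kinase that switches off pyruvate dehydrogenase, was lowest in the young controls. It stood at 24.3, 11.9 and 7.64 CPM in the young controls, 33.3, 41.0 and 38.2 CPM in the young hets, 78.4, 36.3 and 32.7 CPM in the old controls and 38.8, 38.9 and 44.0 CPM in the old hets. Each young control was below each library of the other 3 groups, and old control 1 was the highest of all. Pdk1 was higher in old than in young controls by a log2 change of 1.73 (SE 0.51) and an adjusted p of 0.0451. In young hets over young controls the change was 1.34 (SE 0.51) with an unadjusted p of 0.0157 and an adjusted p of 0.231. The estimate for old hets against old controls was -0.28 (SE 0.47), with an adjusted p of 0.999.

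The 2 other kinases did not pass. Pdk3 averaged 23.7 ± 18.6 CPM in the young controls, 36.9 ± 2.73 in the young hets, 53.2 ± 11.2 in the old controls and 42.2 ± 16.5 in the old hets, and young control 3 had only 3 counts of it. Pdk2 was scarce and was the one kinase with its highest mean in young controls, averaging 6.07 ± 1.29 CPM in the young controls, 2.79 ± 1.75 in the young hets, 3.06 ± 0.445 in the old controls and 1.54 ± 1.37 in the old hets. Its counts were 0 to 38 per library.

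The bifunctional enzymes Pfkfb3 and Pfkfb4 set the level of fructose-2,6-bisphosphate, the strongest activator of phosphofructokinase, and both are HIF targets. Pfkfb3 measured 10.6, 23.8 and 19.1 CPM in the young controls, 29.6, 39.0 and 33.1 CPM in the young hets, 35.7, 67.2 and 41.1 CPM in the old controls and 20.2, 79.4 and 16.4 CPM in the old hets. The young controls lay below all young hets and all old controls, whereas old het 2 stood far above the other 2 old hets. The log2 change of old over young controls was 1.46, SE 0.58 (unadjusted p 0.0202, adjusted p 0.132). Pfkfb4 was at 0.759, 3.40 and 0 CPM in the young controls, 0.336, 6.61 and 10.2 CPM in the young hets, 12.6, 11.1 and 11.1 CPM in the old controls and 2.43, 26.5 and 1.31 CPM in the old hets. The old controls were tightly grouped, the young controls held 3 counts in all, and old het 2 again stood above its group. The ratio of scaled counts in old to young controls was 12.9 (95% counting interval 4.36 to 63.1).

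**Figure D2:**
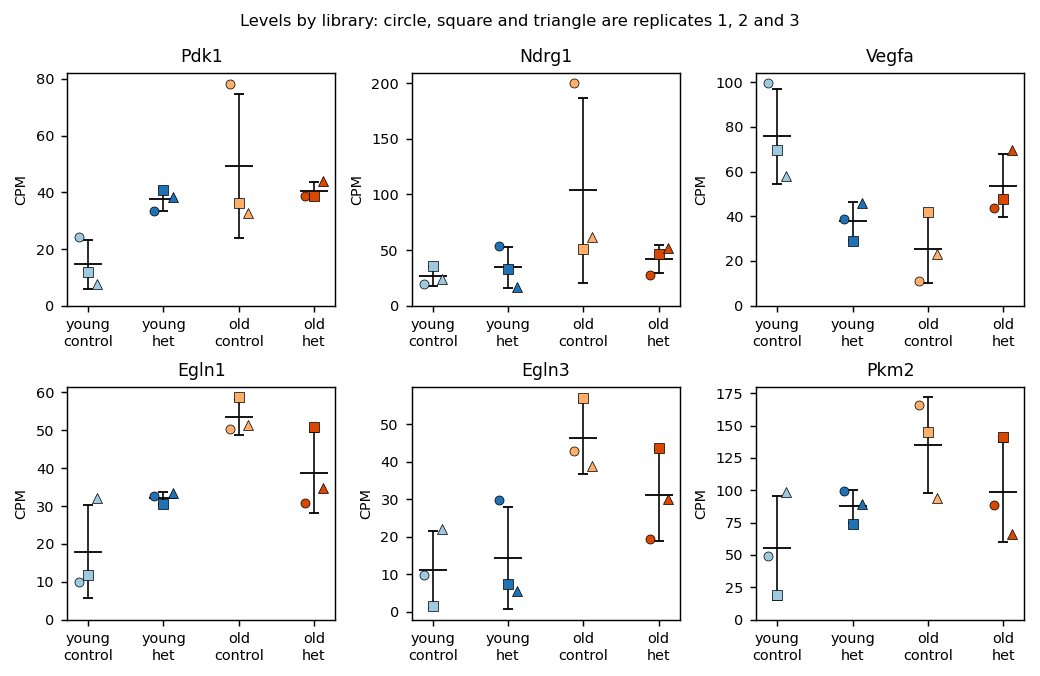
CPM of Pdk1, Ndrg1, Vegfa, Egln1, Egln3 and Pkm2, 1 panel per gene with its own axis from 0. Symbols are the 3 libraries of a group and the bars are mean and SD; Vegfa is highest in young controls and lowest in old controls, and old control 1 is the top point of the Pdk1, Ndrg1 and Pkm2 panels.

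Among the oxygen sensors, Hif1a, the alpha subunit that is regulated mainly through its protein's stability, was the most counted and did not pass. Its levels were 34.2, 42.5 and 43.6 CPM in the young controls, 32.6, 56.9 and 40.2 CPM in the young hets, 58.2, 71.2 and 60.6 CPM in the old controls and 92.2, 38.1 and 65.7 CPM in the old hets. The old controls lay above all young controls, at a log2 change of 0.66 (SE 0.41) and an adjusted p of 0.347.

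Egln1 (PHD2, the main hydroxylase that tags HIF-1 alpha) read 9.87, 11.9 and 32.1 CPM in the young controls, 32.6, 30.5 and 33.4 CPM in the young hets, 50.3, 58.7 and 51.3 CPM in the old controls and 30.7, 50.9 and 34.8 CPM in the old hets. The old controls were tight and above every young control, with young control 3 near the young hets. The change of old over young controls was 1.54 (SE 0.49), with an unadjusted p of 0.00469 and an adjusted p of 0.0585 just above the threshold. Without young control 3 it was 2.26 with an adjusted p of 0.00916, and without both young control 3 and old control 1 it was 2.36 with an adjusted p of 0.0178. Without old control 1 alone, the library that held Ly6a, it was 1.59 with an adjusted p of 0.122.

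Egln3 (PHD3, a strongly HIF-induced hydroxylase) stood at 9.87, 1.70 and 22.2 CPM in the young controls, 29.9, 7.36 and 5.63 CPM in the young hets, 43.0, 57.1 and 38.9 CPM in the old controls and 19.4, 43.7 and 30.2 CPM in the old hets. Old controls were again above all young controls, and the young hets spread as widely as the young controls. The change of old over young controls was 1.95, SE 0.71 (unadjusted p 0.0118, adjusted p 0.0982). It passed without young control 3, at 2.76 with an adjusted p of 0.0454.

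Ndrg1, a stress-responsive HIF target, was the most counted of the remaining targets. It measured 19.7, 35.7 and 23.7 CPM in the young controls, 53.4, 32.9 and 16.9 CPM in the young hets, 199.7, 50.7 and 61.5 CPM in the old controls and 27.5, 46.9 and 51.9 CPM in the old hets. Old control 1 was at more than 3 times the level of the other 2 old controls, yet all 3 old controls lay above all young controls. Ndrg1 was higher in old than in young controls by 2.01 (SE 0.55) on the log2 scale, with an adjusted p of 0.0340. Old hets were below old controls by a log2 change of -1.30 (SE 0.53) at an unadjusted p of 0.0221 and an adjusted p of 0.999, with 1 old het library above the lowest old control. This value was -0.41 without old control 1.

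Vegfa, the secreted growth factor of blood vessels, had its highest mean in young controls and its lowest in old controls. It read 99.5, 69.7 and 58.1 CPM in the young controls, 38.6, 28.8 and 45.9 CPM in the young hets, 11.3, 41.7 and 23.0 CPM in the old controls and 43.7, 47.7 and 69.6 CPM in the old hets. Every young control was above every young het and every old control. Vegfa fell in old against young controls by a log2 change of -1.59 (SE 0.47), with an adjusted p of 0.0459. Young hets were below young controls by -1.01, SE 0.46 (unadjusted p 0.0413, adjusted p 0.330), and each old het was above each old control, by 1.09, SE 0.46 (unadjusted p 0.0292, adjusted p 0.999). The difference between these het effects, old minus young, was 2.10 (SE 0.66) with an unadjusted p of 0.00443 and an adjusted p of 0.183, so it did not pass.

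Bnip3, a receptor for the removal of mitochondria, was low, at 1.52, 0 and 0 CPM in the young controls, 0, 3.45 and 2.56 CPM in the young hets, 7.97, 9.43 and 10.6 CPM in the old controls and 0.809, 11.6 and 11.2 CPM in the old hets. The old controls lay above all young controls, which held 2 counts in all. The ratio of scaled counts in old to young controls was 13.9 (95% counting interval 3.79 to 116), and 2 of its 4 annotated pseudogene copies are rows of the table with 0 counts. Ddit4 (REDD1, a stress-induced brake on mTORC1) stood at 1.52, 1.70 and 0 CPM in the young controls, 0, 9.91 and 4.09 CPM in the young hets, 22.5, 8.49 and 23.0 CPM in the old controls and 0, 9.22 and 3.28 CPM in the old hets. The young controls held 3 counts in all, 1 library of each het group was at 0, and the ratio of scaled counts in old to young controls was 20.5 (95% counting interval 6.97 to 100.1). P4ha1, a subunit of collagen prolyl hydroxylase, averaged 21.9 ± 22.4 CPM in the young controls, 20.8 ± 15.97 in the young hets, 24.7 ± 3.89 in the old controls and 14.98 ± 7.39 in the old hets with overlapping groups, and Ankrd37, a small HIF target, had 37 counts in all, was not tested and averaged 3.59 ± 4.40 CPM in the young controls, 0.812 ± 0.771 in the young hets, 0.157 ± 0.272 in the old controls and 2.03 ± 1.77 in the old hets.

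Compared across genotypes in the young mice, no gene of the set passed. Of the 29 tested genes, 0 passed an adjusted p of 0.05 by edgeR, by DESeq2 or by limma-voom, where 0.424% of all genes passed by edgeR. At an unadjusted p under 0.05 there were 5 (Pdk1, Eno1, Ldhb and Gpi1 with higher and Vegfa with lower levels in hets), against 14.0% of all genes. The groups did not overlap for 6 of 29, against 16.8% of all genes, so each of these counts is near its background. The estimate was higher in hets for 23 of 29 (54.2% of all genes), with a median log2 change of 0.31 against 0.08 over all genes. Leaving out old control 1 and young control 3 together gave 22 of 29 and a median of 0.92, and 8 genes (27.6%) at an unadjusted p under 0.05, where all genes had 17.8% and a median of 0.10, with 0 passing the adjustment. Among the markers, Gfi1 and Cst7 of the neutrophil primary granule list and Hdc of the basophil list passed with higher levels in hets, and the 10 granule markers summed to 10831 to 13824 CPM in hets against 4484 to 10647 CPM in controls. The 8 B lymphoid markers summed to 95.1 to 130 CPM in hets against 159.8 to 241 CPM in controls. The 7 stroma and endothelium markers summed to 276 to 425 CPM against 44.0 to 245 CPM, most of it Vcam1 (mean 308 against 92.1 CPM). Their part in the result was not tested.

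In the old mice, hets against controls, no gene of the set passed. By edgeR, DESeq2 and limma-voom 0 of 29 genes passed, as did 0% of all genes by edgeR. At an unadjusted p under 0.05 there were 2, Ndrg1 lower and Vegfa higher in hets, against 3.58% of all genes. The groups stood apart for 3 (Slc2a1 and Ldha lower, Vegfa higher), against 11.1%. The estimate was higher in hets for 10 of 29 (46.8% of all genes) with a median log2 change of -0.28, where all genes had -0.05. Without old control 1 and young control 3 the median was -0.15 and 0 genes were at an unadjusted p under 0.05. The 8 stem and multipotent markers summed to 172 to 238 CPM in hets and 218 to 1118 CPM in controls, the top value being old control 1. Of the 6 tested 0 passed, as for all genes, while 1 had a higher estimate and 3 were lower at an unadjusted p under 0.05. Of 7 megakaryocyte markers 0 had a higher estimate and 2 were lower at that level. Of 7 monocyte and macrophage markers 5 had higher estimates, 0 at that level. The part of these markers in the result was not tested.

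Between the control groups, old against young, the set had its only genes past the threshold in the 5 tests made. Pdk1 and Ndrg1 rose and Vegfa fell, which is 3 of 29 (10.3%) past an adjusted p of 0.05 where 6.98% of all genes passed. At an unadjusted p under 0.05 there were 12 (41.4%), against 23.1% of all genes. These were the higher Slc2a1, Eno1, Pkm2, Pdk1, Pfkfb3, Pfkfb4, Egln1, Egln3, Ndrg1, Bnip3 and Ddit4 and the lower Vegfa. The groups did not overlap for 15 of 29 (51.7%), where 31.2% of all genes stood apart. By role, those that stood apart were 3 of 3 oxygen sensing genes, 4 of 5 other HIF targets, both Pfkfb enzymes, 4 of 5 genes at the fate of pyruvate, 1 of 3 carriers, 1 of 9 in the preparatory phase and 0 of 2 in the pay-off phase. These counts take both directions: Vegfa of the HIF targets and Pdk2 at the fate of pyruvate were lower in old controls. Ldhb, also counted there, was at 0 in every young control. Both pay-off genes (Eno1 and Pkm2) but none of the 9 preparatory genes had an unadjusted p under 0.05. The estimate was higher in old controls for 25 of 29 (57.9% of all genes), and the median log2 change was 0.71 against 0.22.

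These 3 calls were not stable. DESeq2 passed 5 genes, with Egln1 (adjusted p 0.0310) and Ddit4 (0.0415) added, limma-voom passed only Vegfa, and a fit of these 2 groups alone passed 0. Without old control 1, the library that held Ly6a, 0 of 29 passed: Pdk1 was at 1.23 (adjusted p 0.242), Ndrg1 at 1.12 (0.286) and Vegfa at -1.21 (0.189), while 25 of 29 estimates were still higher in old controls and their median was 0.73. Leaving out young control 2 also gave 0, and leaving out young control 3 gave 4 (Vegfa, with Pkm2, Egln1 and Egln3 in place of Pdk1 and Ndrg1). The count was 1 without old control 3, old het 1, old het 3, young control 1, young het 2 or young het 3. With the mitochondrial ribosomal RNA share as a covariate 0 passed, and the changes were 1.55 for Pdk1, 1.79 for Ndrg1 and -1.22 for Vegfa, with 25 of 29 estimates higher in old controls.

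Markers of other cell types moved with this comparison, and their part in the result was not tested. All 6 tested stem and multipotent markers had higher estimates in old controls, Hlf (3.33, adjusted p 0.0135) and Meis1 (2.17, adjusted p 0.0452) passed, and without old control 1 they were at 1.57 (adjusted p 0.245) and 0.23 (adjusted p 0.850). The summed level of the 8 listed ran from 218 to 1118 CPM in old controls and from 144 to 151 CPM in young controls. Of 10 markers of neutrophil primary granules, 5 passed with higher levels in old controls (Prtn3, Gfi1, Cst7, Cebpa and Clec12a), and the sum ran from 6182 to 14668 CPM against 4484 to 10647 CPM. Of the 10, 8 had higher estimates, and 1 was lower at an unadjusted p under 0.05. Ms4a3 (mean 1398 against 2740 CPM) and Cebpe (120 against 260 CPM) were lower in old controls. Of 5 tested B lymphoid markers, 3 passed with lower levels (Ebf1, Pax5 and Vpreb1), and the sum of the 8 listed ran from 24.3 to 48.5 CPM against 159.8 to 241 CPM, with Cd79a at 0 in both groups. Of 9 tested immediate early genes, Fos and Jund passed with lower levels, and the 10 listed summed to 236 to 892 CPM against 614 to 1316 CPM. Camp of 8 mature neutrophil markers passed with a lower level, and Irf8 of 7 monocyte and macrophage markers and Prss34 of 6 basophil and mast cell markers passed with higher levels. Estimates were higher in old controls for 4 of these 8, 4 of these 7 (with 1 lower at an unadjusted p under 0.05) and 5 of these 6. Of 7 megakaryocyte markers 0 passed by edgeR, but 6 had higher estimates in old controls, 5 of them at an unadjusted p under 0.05, and the 9 listed summed to 244 to 582 CPM against 139.7 to 201 CPM. Of 12 erythroid markers 0 passed and 11 had lower estimates, 3 at an unadjusted p under 0.05, with sums of 770.0 to 2311 CPM against 1974 to 2186 CPM. The 6 T and NK markers summed to 80.5 to 147 CPM against 22.1 to 42.0 CPM, and 0 of the 2 tested passed, with 1 at an unadjusted p under 0.05. Most of this sum was Nkg7 (mean 110 against 27.3 CPM), while Cd3d, the other tested, was lower in old controls (3.24 against 6.95 CPM). None of 2 stroma and endothelium markers, 3 genes of the progenitor gate (0 each at an unadjusted p under 0.05) or 10 cell cycle genes (2 at that level) passed by edgeR.

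**Figure D3:**
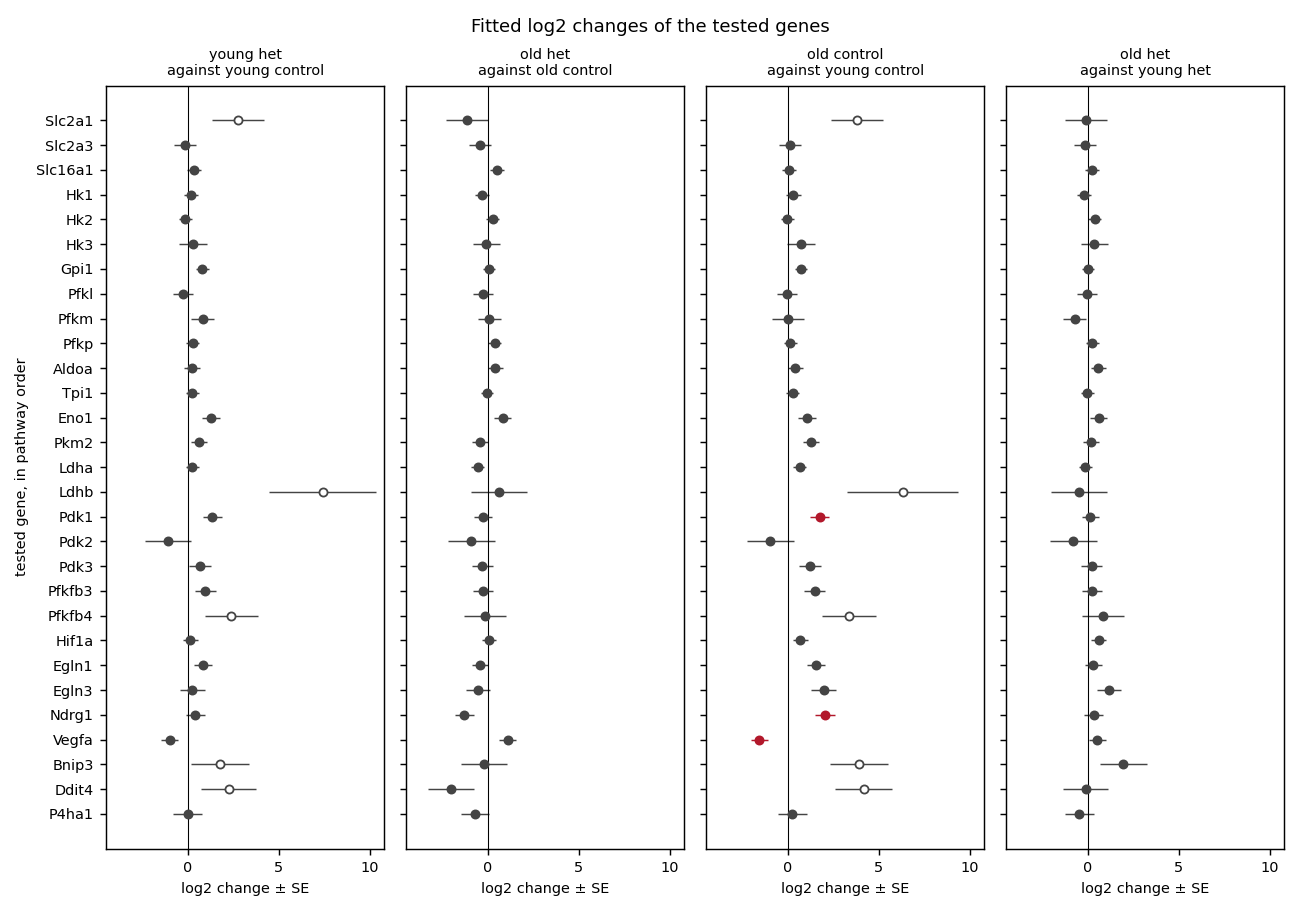
Fitted log2 change with its SE for the 29 tested genes in 4 comparisons, 1 panel each. Red points passed an adjusted p of 0.05 (Pdk1, Ndrg1 and Vegfa in old against young controls), and open points are genes with 3 or fewer counts in a group, whose fitted change is not a fold.

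In the hets, old against young, no gene of the set passed. By edgeR, DESeq2 and limma-voom 0 of 29 passed, where 0.00943% of all genes passed by edgeR, which is 1 gene, the immediate early gene Fos. At an unadjusted p under 0.05 there were 0 by edgeR and 1 by limma-voom, against 6.28% of all genes. No gene of the set had groups that stood apart, where 14.0% of all genes did. The estimate was higher in old hets for 17 of 29 (50.6% of all genes), with a median log2 change of 0.20 against 0.01. Bnip3 (1.93, SE 1.29) and Egln3 (1.15, SE 0.67) had the highest estimates of the 29, with adjusted p of 0.870 and 0.859. Of the markers, 0 of 12 erythroid and 0 of 8 mature neutrophil genes had higher estimates in old hets. At an unadjusted p under 0.05, 6 and 4 of them were lower, as were 7 of 9 immediate early genes. Of 7 monocyte and macrophage markers 5 had higher estimates, 2 at that level. The 8 B lymphoid markers summed to 31.7 to 60.4 CPM against 95.1 to 130 CPM in young hets. The part of these markers in the result was not tested.

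The test of whether the het effect differed with age gave 0 of 29 genes by edgeR, DESeq2 and limma-voom, where 0.0849% of all genes passed by edgeR. At an unadjusted p under 0.05 there were 5, against 12.8% of all genes. Vegfa had a more positive het effect in old mice, and Pdk1 (-1.62, SE 0.69), Ndrg1 (-1.71, SE 0.76), Slc2a1 and Ddit4 a more negative one. The estimate was negative for 22 of 29, since 7 were positive (43.4% of all genes were), and the median was -0.73 against -0.18. It uses all 4 groups, so it shares its libraries with each comparison above and is no separate evidence.

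Shares of paralogs within a family do not depend on how libraries are scaled. Slc2a1 made up 1.71% ± 2.96 of the counts of both glucose carriers in young controls, 16.4% ± 5.32 in young hets, 30.1% ± 11.9 in old controls and 18.4% ± 6.55 in old hets. By library it was 5.13%, 0% and 0% in young controls and at least 12.3% in each of the other 9, so the young controls stood below all of them, though on 2 counts. Pdk2 took 18.3% ± 11.6 of the 3 pyruvate dehydrogenase kinases in young controls, on 19 counts, against 3.57% ± 2.14 in young hets, 3.05% ± 0.762 in old controls and 1.94% ± 1.87 in old hets. The lowest young control (10.1%) was above the highest other library (6.04%).

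In 3 more families the young controls stood apart from another group. Pfkl took 21.3% ± 0.671 of phosphofructokinase counts in young controls, above every young het (14.5% ± 4.05) and every old het (13.9% ± 5.03). Pfkfb4 took 6.39% ± 6.25 of the counts of both Pfkfb enzymes in young controls, below every old control (20.5% ± 6.02). Ldhb took 0% of lactate dehydrogenase counts in every young control and more than that in every old control (2.90% ± 1.40) and every old het (6.30% ± 7.58). The hexokinase shares overlapped between all groups. Hk2 held between 49.2% ± 8.32 and 58.6% ± 16.1 of hexokinase counts, both in old mice, and Hk3 at most 5.93% ± 3.24. The predominant Pfkp held from 66.4% ± 1.501 of phosphofructokinase counts in young controls to 75.1% ± 9.47 in old hets. Ldha made up 92.8% ± 10.1 to 100% of lactate dehydrogenase, and Egln1 was 65.6% ± 19.6 of both hydroxylases in young controls and 53.8% ± 3.08 in old controls. With 3 libraries against 3, an exact permutation test cannot go below 0.1, so no test is given on these shares.

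**Figure D4:**
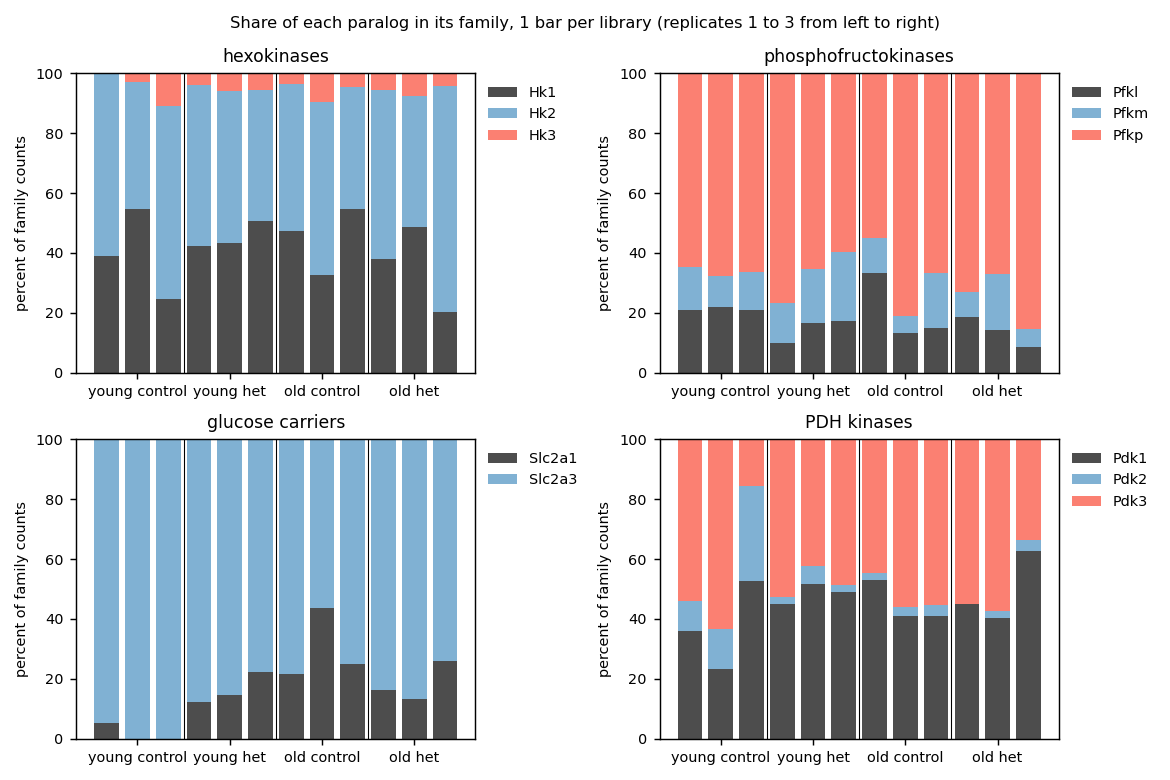
Share of each paralog in the summed counts of its family, 1 stacked bar per library from 0 to 100%, for 4 families. Slc2a1 is nearly missing from the young controls, where it takes 0% to 5.13% of the carrier counts, and Pdk2 takes its largest share there.

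Around the set, 111 genes of 8 neighbouring pathway lists were tested. In old against young controls 4 of them rose and 5 fell, which is near the background of 6.98%. The estimate was higher in old controls for 77 of 111 (69.4%), where it was for 86.2% of the glycolysis and hypoxia genes and 57.9% of all genes. The median log2 change of the 111 was 0.45, against 0.71 and 0.22. Of a list of 20 genes of the tricarboxylic acid cycle and its cytosolic counterparts, 3 rose and none fell: Idh1, the cytosolic isocitrate dehydrogenase (3.29, SE 0.51, adjusted p 0.00117), Sdha, a subunit of succinate dehydrogenase (1.45, SE 0.34, adjusted p 0.0139), and Mdh1, the cytosolic malate dehydrogenase (1.82, SE 0.50, adjusted p 0.0338). Meis1, a transcription factor known to raise Hif1a in stem cells, was the 1 of 16 upstream regulators that rose (2.17, SE 0.64, adjusted p 0.0452), and it is also among the stem cell markers above. It read 388, 44.3 and 37.1 CPM in old controls and 28.9, 34.0 and 42.0 CPM in young controls, so the groups overlapped. With that first library left out, Idh1 and Sdha still passed, while Mdh1 was at 1.32 (adjusted p 0.190) and Meis1 at 0.23 (adjusted p 0.850).

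The 5 genes that fell came from 5 of the lists. Gys1, muscle glycogen synthase, was the 1 of 11 glycogen and gluconeogenesis genes to fall (-2.61, SE 0.42, adjusted p 0.00146). Pgls, the lactonase of the pentose phosphate pathway, was 1 of 12 (-1.80, SE 0.36, adjusted p 0.00516). Minpp1, a phosphatase of inositol phosphates and 2,3-bisphosphoglycerate, was 1 of 9 (-1.85, SE 0.43, adjusted p 0.0132), and Pdha1, the E1 subunit of pyruvate dehydrogenase that the Pdk kinases phosphorylate, was 1 of 9 (-1.19, SE 0.34, adjusted p 0.0412). Cited2, which competes with HIF-1 alpha for its coactivator, was the 1 of 12 genes of the HIF machinery to fall (-1.82, SE 0.34, adjusted p 0.00333). With old control 1 left out, Gys1, Pgls and Cited2 still passed, while Minpp1 was at -1.66 (adjusted p 0.0720) and Pdha1 at -0.90 (adjusted p 0.189). Over the 12 fits that each left out 1 library, Idh1, Gys1, Pgls and Cited2 passed in all 12, Sdha in 11 (not without old control 3), Minpp1 in 10 (not without old control 1 or 2), Mdh1 in 7, Pdha1 in 4 and Meis1 in 3. None of 23 further HIF targets passed in old against young controls, and 16 had higher estimates. Of these 23, 3 (13.0%) had an unadjusted p under 0.05, 2 higher and 1 lower, against 23.1% of all genes. The groups did not overlap for 4 (17.4%), against 31.2% of all genes.

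In the other comparisons 1 neighbouring gene passed. Idh1 rose in young hets over young controls (2.56, SE 0.50, adjusted p 0.0385), and that comparison shares its young controls with the one above. Idh1 did not pass there without young control 1, young control 2 or any 1 young het (adjusted p up to 0.156), at estimates of 2.29 to 2.71. Of the pentose phosphate genes, Taldo1, transaldolase, came nearest in young hets (1.22, SE 0.33, adjusted p 0.104). By edgeR 0 of 111 passed in old hets against old controls, with 7 at an unadjusted p under 0.05 (3.58% of all genes). In old against young hets 0 passed with 6 at an unadjusted p under 0.05 (6.28% of all genes), and for the difference of het effects 0 passed with 15 (12.8% of all genes). Estimates were higher for 62 of 111 in young hets over young controls (55.9%, all genes 54.2%). They were higher for 35 in old hets against old controls (31.5%, all genes 46.8%) and for 52 in old against young hets (46.8%, all genes 50.6%). For the difference of het effects 34 were positive (30.6%, all genes 43.4%).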

How the data were processed

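Values were whole-number counts per gene symbol, as deposited by the authors in 1 table for all 12 samples; the tools named, per the submitters' processing notes, include STAR 2.4, HTSeq 0.6.1 and DESeq2 with build mm9. Their roles, the annotation and the strand setting are not stated in the sources used here. Samples were grouped by the labels' age and genotype fields. Counts were tested with edgeR 4.0.16 in R 4.3.3 (TMM scaling, a filter by filterByExpr at 10 counts and 15 in total, quasi-likelihood F test, all 4 groups in 1 fit, biological coefficient of variation 0.535), with Benjamini-Hochberg adjustment over 10604 genes at 0.05, which was tested on simulated data. The SE is the log2 change over the square root of F. Intervals and the floor of 3 counts cover counting error only.

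Alternatives were DESeq2 1.42.0, limma-voom (limma 3.58.1), other scaling, no filter, the compared groups alone, old control 1 and young control 3 left out, the mitochondrial ribosomal RNA share as covariate, and each library left out. Per-library values are printed for genes with an adjusted or unadjusted p under 0.05 in any comparison and for the most counted gene of each role; at most 3 genes of each neighbouring list are named. The genes, lists and alternatives were chosen with earlier results of these data known. Copies were sought with BLAST 2.17.0 in GENCODE transcripts of GRCm38, and promoters were read from RefSeq tables; reads of near-identical, overlapping or antisense genes cannot be told apart.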

Additional observations from a re-analysis of the deposited data

How the results depend on the processing

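Alternatives were run on 24 estimates of the glycolysis and hypoxia genes at an unadjusted p under 0.05 and on 28 estimates of neighbouring or marker genes past the threshold; the other genes named were not recomputed one by one. None of the 52 reversed its direction. Of 980 values, 781 kept their side of the threshold, 192 lost it and 7 gained it; for the glycolysis and hypoxia genes, all 33 losses and 7 gains were in old against young controls. Of the 23 neighbouring or marker estimates past the threshold in old against young controls, 15 to 23 passed with single libraries left out, 14 with limma-voom and 0 with the mitochondrial ribosomal RNA covariate. Of 4 in young hets against young controls (Idh1, Gfi1, Cst7 and Hdc), 0 passed without young control 1, young control 2 or any 1 young het. For the glycolysis and hypoxia genes in old against young controls (3 past the threshold), DESeq2 gave 5, limma-voom 1 and the compared groups alone 0. With old control 1 and young control 3 left out the count was 1 (Egln1), and with the mitochondrial ribosomal RNA covariate it was 0. Leaving out single libraries gave 0 to 4: 0 without old control 1 or young control 2, 1 without old control 3, old het 1, old het 3, young control 1, young het 2 or young het 3, and 4 without young control 3. In the other comparisons and for the difference of het effects, these genes stayed at 0 under all alternatives and single omissions.

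Over all genes, young hets against young controls (45 genes) gave 346 with DESeq2, 23 with limma-voom, 258 without the filter, 13 with the compared groups alone, 241 without old control 1 and young control 3, 2 with the covariate, and 1 to 157 with single libraries left out (157 without young control 3, 1 without young control 2 or young het 3). Old against young controls (740) gave 1295 with DESeq2, 463 without both libraries, 6 with the covariate, and 315 (without old control 1) to 886. Old hets against old controls (0) gave 11 without the filter and 0 to 1 with single omissions (1 without old control 2). Old against young hets (1) gave 15 with DESeq2, 22 without the filter, 2 with the compared groups alone, 8 without both libraries, 2 with the covariate, and 0 to 7 (7 without young control 3). The difference of het effects (9) gave 247 with DESeq2, 2 with limma-voom, 216 without the filter, 59 without both libraries, 1 with the covariate, and 2 to 294 (294 without old het 2). The cause of these shifts was not tested. No paired analysis was possible because the sample numbers in the labels are unique and no number is shared between groups. In young control 2, 1 count is 1.70 CPM, so levels of a few CPM were not measurable there.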
